A study of Drosophila melanogaster with 8 samples.

Results

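The heat shock genes examined here were Hsp83, Hsp22, Hsp23, Hsp26, Hsp27, Hsp68, Hsp70Aa, Hsp70Ba and Hsf, 9 of 18277 annotated Drosophila genes. They were chosen by name and not by a rule on their AGO2 signal, but with earlier results of these data known. A peak was assigned to a gene when it overlapped the gene or lay within 1500 bp of it. Of the members, 7 are single-copy genes and 2 belong to the Hsp70 family of near-identical copies. AGO2 occupancy was assayed by chromatin immunoprecipitation and sequencing (ChIP-seq) in Kc167 cells, a line derived from Drosophila embryos. Cells were either mock treated or given triptolide at 10 µM for 60 min, and what the mock treatment contained is not given by the labels. Each treatment had 2 AGO2 immunoprecipitations, each with its own input, which makes 8 samples and 4 peak lists. The replicates are not described as separate cultures, so the spread between them may be technical. No group received a heat shock according to the labels, and cells were kept at the usual growth temperature.

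Heat shock proteins are chaperones, which bind other proteins and keep them folded or hand them on for refolding or degradation. In Drosophila their genes are a textbook case of promoter-proximal pausing: before heat shock, RNA polymerase II is already engaged just downstream of the start, and GAGA factor keeps the promoter open. On heat shock the trimeric heat shock factor binds heat shock elements upstream of the start, and transcription rises within minutes. Triptolide blocks initiation by acting on the TFIIH subunit that opens promoter DNA. AGO2 is the effector of the short interfering RNA pathway and is also found on chromatin.

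The 4 lists differed in size, with 1055 and 1919 peaks in mock replicates 1 and 2 and 5594 and 5873 in triptolide replicates 1 and 2. Median fold enrichment over local background was 5.0 and 4.73 in the mock lists and 3.4 and 3.46 in the triptolide lists. Among all 18277 genes, 6.53% and 11.3% had a peak in mock replicates 1 and 2, and 34.1% and 34.3% in triptolide replicates 1 and 2. Read numbers were not used here, so depth is unknown, and a gene without a peak in a list may carry signal below the threshold of the caller. Peak lists hold no expression values, so the cell line could not be checked by its marker genes.

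The promoters of these genes carry recognisable elements, and those at which the peaks lay are shown first. They were read from the Release 6 genome (dm6, RefSeq), 5′ to 3′ on the strand of the gene, and each of the longer stretches ends at the base before the start. Capitals mark heat shock elements of 3 units (GAA and TTC in alternation, each parted by any 2 bases). Also marked are the GAGA element GAGAG on either strand (CTCTC on the strand shown) and the TATA box sequence TATAAA, wherever it lay. The first pair had an AGO2 peak over the start in mock replicate 2, and the second pair had none there in any list. Their positions are chr3L:9377428-9377677 (minus strand) for Hsp26, chr3R:12467777-12468026 (minus strand) for Hsp70Ba, chr3R:24057311-24057560 (minus strand) for Hsp68 and chr3L:9383813-9384062 (plus strand) for Hsp27.
Hsp26: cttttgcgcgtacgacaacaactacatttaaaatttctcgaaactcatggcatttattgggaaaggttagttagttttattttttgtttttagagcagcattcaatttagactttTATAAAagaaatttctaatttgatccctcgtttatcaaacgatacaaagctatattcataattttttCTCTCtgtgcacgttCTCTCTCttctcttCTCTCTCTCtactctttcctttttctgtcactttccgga
Hsp70Ba: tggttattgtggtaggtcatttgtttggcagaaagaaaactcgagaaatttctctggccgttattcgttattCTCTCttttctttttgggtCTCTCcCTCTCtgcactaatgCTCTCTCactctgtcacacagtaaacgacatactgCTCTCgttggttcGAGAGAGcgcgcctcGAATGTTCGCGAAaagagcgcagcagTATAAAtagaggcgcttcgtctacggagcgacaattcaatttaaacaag
Hsp68: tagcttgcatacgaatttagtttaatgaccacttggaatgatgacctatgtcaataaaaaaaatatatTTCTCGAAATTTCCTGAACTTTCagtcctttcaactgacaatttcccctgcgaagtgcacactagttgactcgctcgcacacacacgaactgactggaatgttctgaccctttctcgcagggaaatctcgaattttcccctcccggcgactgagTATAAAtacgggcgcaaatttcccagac
Hsp27: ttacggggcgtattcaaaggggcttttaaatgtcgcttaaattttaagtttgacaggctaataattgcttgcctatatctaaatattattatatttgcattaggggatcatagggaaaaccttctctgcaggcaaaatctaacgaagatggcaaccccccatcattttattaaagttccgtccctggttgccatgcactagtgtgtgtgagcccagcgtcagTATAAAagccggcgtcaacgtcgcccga
For Hsp22, a 30-base element at chr3L:9373902-9373931 (plus strand) is shown, from 95 to 66 bases before the downstream of its 2 starts. Here capitals mark a heat shock element of 2 units (GAANNTTC or TTCNNGAA) that runs into GAGA elements.
Hsp22: agggcgaaGAAAATTCGAGAGAGtgccggt

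Over the 250 bases before and the 50 bases after the start, GAGAG on either strand was present in 5 of 9 members, namely Hsp22, Hsp23, Hsp26, Hsp70Aa and Hsp70Ba, against 29.7% of 13968 promoters of protein-coding genes. All 3 members with a mock peak over the start, Hsp22, Hsp26 and Hsp70Ba, were among these 5. At Hsp26 and Hsp70Ba that peak was called in mock replicate 2 alone. Hsp23 and Hsp70Aa had GAGAG without a mock peak. At Hsp70Aa few stretches of 50 bases before the start occur once in the genome, so a peak there could be missed. The search for GAGAG was added after the data were seen, and a tie between GAGAG and mock peaks was not tested. A heat shock element of 3 units was found in 3 of 9 members, Hsp68, Hsp70Aa and Hsp70Ba, against 0.43% of promoters. One of 2 units, which is contained in every element of 3 units, was found in 6 of 9 members against 15.9% of promoters. TATAAA on the strand of the gene, at any place in the window, was found in 8 of 9 members, the exception being Hsf, against 32.1% of promoters. Such matches describe the sequence and say nothing of which factor was bound. For Hsp22 the window was placed on the downstream of its 2 annotated starts, near which its mock summits lay. Its other start lies at -1066 bp from that one, and the matches counted for Hsp22 are those near the downstream start. For Hsp26 the window was placed on the upstream of 2 annotated starts, which lie 52 bp apart. For Hsp83, whose 2 starts lie 247 bp apart, the upstream start was likewise used. The TATAAA of Hsp83 lay 148 to 143 bases before that start. Hsp26 had TATAAA 135 to 130 bases before its upstream start. It had another 25 to 30 bases beyond that start, which is before its downstream start. Whether any match serves as a TATA box was not tested.

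Counted over members in the full lists, peaks were called more often after triptolide. These are counts of presence in a list and not of a change in signal. Peaks under both treatments were found at Hsp22 and Hsp26 alone, where they lay at different places in the gene. At Hsp26 the mock peak was called in replicate 2 alone. By differential binding over the genome, the study reported far more AGO2 sites lost than gained after triptolide, a measure not used here. The number of members with a peak was 1 and 3 in mock replicates 1 and 2 and 8 and 6 in triptolide replicates 1 and 2, or 2 ± 1.41 (SD, n = 2) against 7 ± 1.41 (SD, n = 2). The difference of 5 genes exceeded the spread between replicates, and an exact two-sided permutation test gave p = 0.333, the smallest value that 2 lists against 2 allow. By this test on values per list, no comparison between treatments made here can therefore reach 0.05. Members with a peak made up 11.1% and 33.3% of the 9 genes in the mock lists, and 88.9% and 66.7% in the triptolide lists, to be read against the background of all genes given above. The triptolide counts include Hsp70Aa in both lists, and Hsf in replicate 2, through peaks with summits in a neighbouring gene. With a window of 0 bp, the numbers were 1 and 3 in the mock lists and 7 and 4 in the triptolide lists. With the 1055 strongest peaks of every list, they were 1 and 2 against 4 and 1.

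A summit, the position of highest signal in a peak, was placed at the start when it fell within 250 bp of an annotated start of the gene, and in the body when it fell inside the gene but farther from every start. A summit at the start was found for 1 and 3 members in the mock lists and for 0 and 0 in the triptolide lists, and the means differed by -2 (exact permutation p = 0.333). This contrast depended on the width of the start zone. With 500 bp in place of 250 bp, a start summit was found for 1 and 3 members in the mock lists and for 3 and 1 in the triptolide lists, a difference of 0.0. With 150 bp it was found for 0 and 1 against 0 and 0, and the Hsp22 mock summits then counted as body. Among all genes a summit within 250 bp was found for 2.77% and 4.27% in the mock lists and for 2.27% and 1.95% in the triptolide lists. A summit in the body was found for 0 and 0 members in the mock lists and for 7 and 4 in the triptolide lists, a difference of 5.5 (exact permutation p = 0.333). Among all genes the body shares were 2.15% and 3.98% in the mock lists and 20.2% and 20.8% in the triptolide lists, against 77.8% and 44.4% of members after triptolide. All genes include non-coding genes and genes too short to hold a body summit, and they were not matched to the members in length or type. All 7 members with a body summit were single-copy genes. Of the 2 Hsp70 members, 0 had a body summit in any list.

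**Figure D1:**
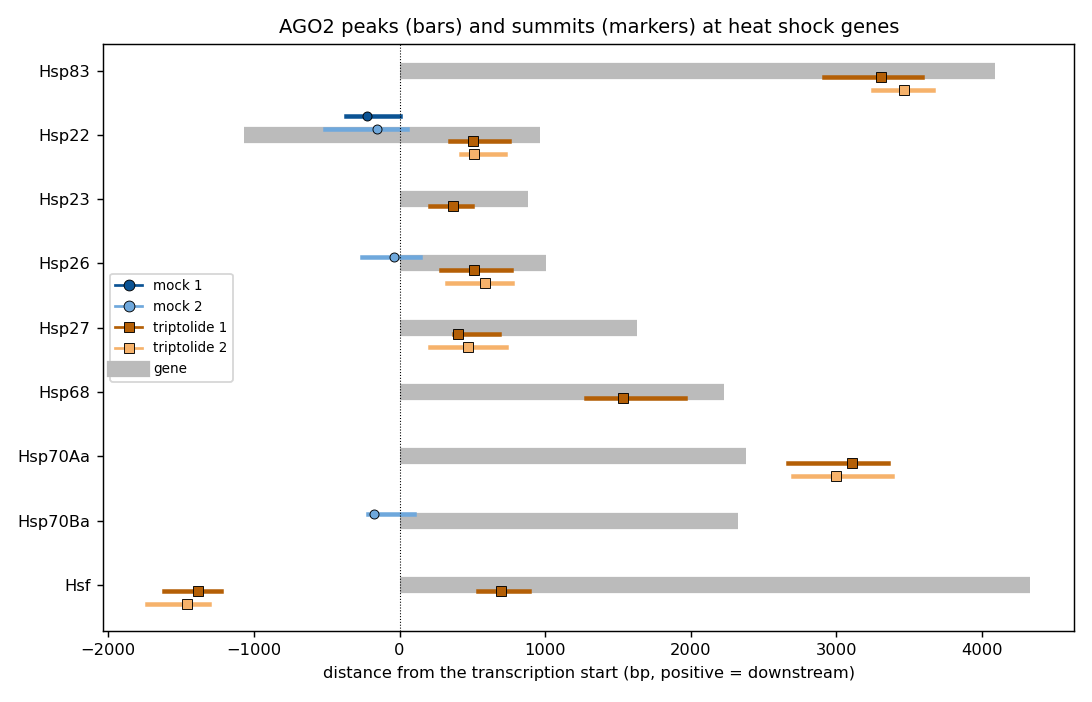
AGO2 peaks (coloured bars) and their summits (circles in mock, squares after triptolide) at the 9 members, as distance in bp from the transcription start; grey bars are the genes, drawn from the upstream start for Hsp83 and Hsp26 and with the downstream start at 0 for Hsp22. The 4 mock summits lie at or before the start, and all 11 triptolide summits inside a member lie in its body, while the remaining 4 triptolide peaks lie beside Hsp70Aa and Hsf. Start and body are set by a zone of 250 bp, and with 500 bp the numbers of members with a start summit no longer differ between treatments on average.

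The lists held 4 peaks at members in mock and 15 after triptolide. Of the 4 mock peaks, 0 overlapped any triptolide peak. Of the 15 triptolide peaks, 11 had the summit in the coding sequence of a member and 4 in the coding sequence of a neighbouring gene. Between replicates, 1 of 1 and 1 of 3 mock peaks overlapped a peak of the other list, as did 6 of 9 and 6 of 6 triptolide peaks. The triptolide positions were thus found again in the second replicate for Hsp83, Hsp22, Hsp26 and Hsp27 and beside Hsp70Aa and Hsf, whereas of the mock positions only that of Hsp22 was.

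The small heat shock proteins share an alpha-crystallin domain and keep unfolding proteins from aggregating, and 4 of the members lie in their gene cluster on chromosome arm 3L. Hsp22 encodes a small heat shock protein of mitochondria and was the only member with a peak in all 4 lists. The gene (FBgn0001223) spans chr3L:9372931-9374964 on the plus strand. Its mock peaks covered chr3L:9373626-9374003 in replicate 1 and chr3L:9373482-9374050 in replicate 2, with summits 226 and 154 bp before the downstream start. Fold enrichment there was 4.71 and 8.69, with −log10 q-values of 9.06 and 35.9 and score percentiles of 40.4 and 79.3 within the lists (a percentile of 100 is the strongest peak). These summits fell between the start and the upstream start of a longer transcript, in the 5′ UTR of that transcript and in the 3′ UTR annotated for the overlapping gene CG4456. The element of Hsp22 printed above, from 95 to 66 bases before the start, lay inside both mock peaks.

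After triptolide the Hsp22 peaks lay in the coding sequence. They covered chr3L:9374344-9374747 in replicate 1 and chr3L:9374420-9374718 in replicate 2, with summits 506 and 514 bp beyond the start. Fold enrichment was 3.64 and 2.61, the −log10 q-values were 6.68 and 3.4 and the percentiles were 87.6 and 35.8. Mock and triptolide peaks were parted by 293 to 416 bp, and their summits by 660 to 740 bp, over the 4 pairs of lists. The summits of replicates differed by less than that within each treatment, so the shift in position exceeded the replicate spread.

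Hsp26, another small heat shock gene (FBgn0001225, chr3L:9376418-9377427, minus strand), showed the same pair of positions. A peak at chr3L:9377285-9377682 in mock replicate 2 had its summit 36 bp before the upstream of its 2 starts, with a fold of 4.56, a −log10 q-value of 13.2 and a percentile of 49.5. Mock replicate 1 had 0 peaks there, so the mock position at Hsp26 rests on 1 list. That summit lay within the run of CTCTC repeats printed above, whose matches extend from 68 to 31 bases before the start. The triptolide peaks at chr3L:9376659-9377145 and chr3L:9376655-9377098 had summits 512 and 589 bp beyond the upstream start. From the nearer, downstream start, which decided between start and body, the summits lay 460 and 537 bp away. Folds were 3.77 and 2.56 and percentiles 90.0 and 52.4. These peaks were parted from the mock peak by 139 and 186 bp, with 548 and 625 bp between summits.

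Both positions together were found at Hsp22 and Hsp26 alone among the 9 members. Of all 18277 genes, 485 (2.65%) had a summit at the start in a mock list and a summit in the body in a triptolide list. For the parts of this count, 3 of 9 members had a start summit in mock and 7 of 9 a body summit after triptolide, against 824 and 4912 of all genes.

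The remaining small heat shock members, Hsp27 and Hsp23, had 0 peaks in either mock list. At Hsp27 (FBgn0001226, chr3L:9384063-9385694, plus strand) the triptolide peaks covered chr3L:9384438-9384746 and chr3L:9384273-9384792, with summits 401 and 472 bp beyond the start. They were weak, with folds of 1.9 and 2.32, −log10 q-values of 1.72 and 2.42 and percentiles of 1.85 and 13.3. At Hsp23 (FBgn0001224, chr3L:9381882-9382765, plus strand) a peak was called in triptolide replicate 1 alone, at chr3L:9382091-9382382. Its summit lay 365 bp beyond the start, with a fold of 3.49, a −log10 q-value of 3.86 and a percentile of 47.2. By number, 1 and 2 of the 4 small heat shock members had a peak in the mock lists, and 4 and 3 in the triptolide lists.

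**Figure D2:**
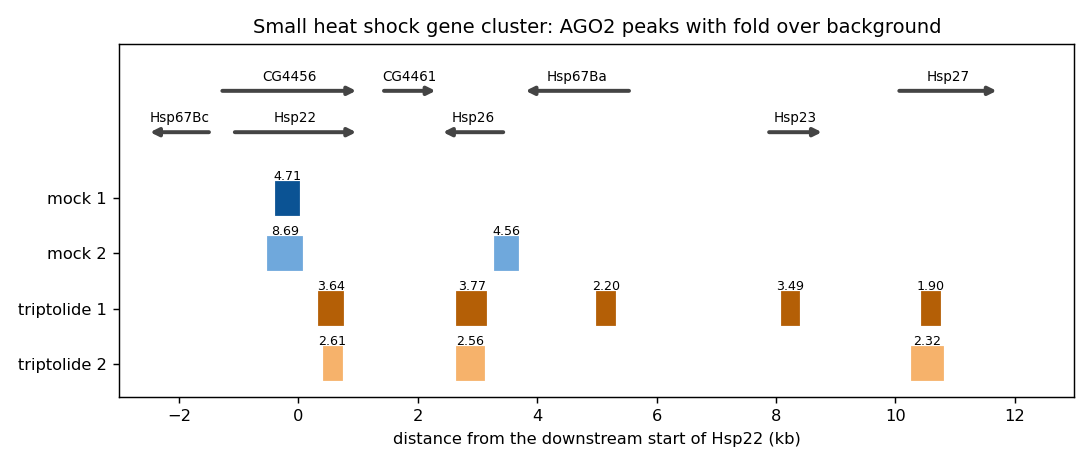
The small heat shock gene cluster, with distance in kb from the downstream start of Hsp22; arrows are genes drawn in their direction, and coloured blocks are AGO2 peaks in each of the 4 lists with the fold enrichment given by the authors above each. Mock peaks within this map lie at Hsp22 and Hsp26, with folds of 4.71, 8.69 and 4.56, and the triptolide peaks at the 4 members have folds from 1.9 to 3.77, beside a peak with a fold of 2.2 in Hsp67Ba.

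The triptolide summits of the 4 small heat shock members lay between 249 and 350 bp into the coding sequence. Measured from the start codon they lay at 252 and 260 bp in Hsp22, at 249 bp in Hsp23, at 273 and 350 bp in Hsp26 and at 278 and 349 bp in Hsp27. The coding sequences are 522, 558, 624 and 639 bp long for Hsp22, Hsp23, Hsp26 and Hsp27. Of the small heat shock genes that are not members, Hsp67Ba and CG13133 had such a summit farther in, at 419 and 633 bp, each in triptolide replicate 1 alone. Short genes leave little room for other places. Over all genes of up to 2500 bp, the median body summit lay 546 bp from the nearest start in triptolide replicate 1 and 546 bp in triptolide replicate 2, and 526 and 484.5 bp in the mock lists.

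To compare these places, 121 bases around a triptolide summit (the base in position 61) are shown for Hsp26 at chr3L:9376855-9376975 (minus strand), Hsp23 at chr3L:9382187-9382307 (plus strand) and Hsp27 at chr3L:9384475-9384595 (plus strand), 5′ to 3′ on the strand of the gene. Replicate 1 was used for Hsp26 and Hsp23 and replicate 2 for Hsp27. Capitals mark the longest word that the 3 stretches share, of 10 bases.
Hsp26: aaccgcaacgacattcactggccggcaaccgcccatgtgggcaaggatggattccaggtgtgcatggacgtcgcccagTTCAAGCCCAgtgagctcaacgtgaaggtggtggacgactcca
Hsp23: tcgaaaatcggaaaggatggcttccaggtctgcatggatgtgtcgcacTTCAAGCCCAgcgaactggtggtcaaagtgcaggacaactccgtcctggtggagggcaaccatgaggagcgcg
Hsp27: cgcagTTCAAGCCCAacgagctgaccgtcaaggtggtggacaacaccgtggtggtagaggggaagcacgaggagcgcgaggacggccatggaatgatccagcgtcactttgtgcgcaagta
The word began 291, 237 and 294 bp from the start codon in Hsp26, Hsp23 and Hsp27. Its place relative to the summit differed, at 18, -12 and -55 bp (negative is before the summit). It occurred 0 times in the coding sequence of Hsp22, which had triptolide peaks as well. The stretches are coding sequence of related genes, and a tie between the word and the summits was not tested. Every window of 50 bp within the peaks of these 4 genes occurred once in the genome.

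The mock and the triptolide positions differed in base composition. Median GC content of the peaks at members was 45.5% and 39.0% in the mock lists. In the triptolide lists it was 58.9% and 60.55%, which is 17.5 percentage points higher on average (p = 0.333 by the exact permutation test). All 4 mock peaks were below 46% GC and all 15 triptolide peaks at or above 54%. The lists as a whole differed in the same direction, with medians of 51.2% and 48.9% for the mock lists and of 58.9% and 59.8% for the triptolide lists. At the small heat shock genes GC content changes sharply within the gene. The 250 bp before the start held 42.4%, 51.2%, 32.8% and 42.8% GC in Hsp22, Hsp23, Hsp26 and Hsp27, and the coding sequence held 61.1%, 57.7%, 59.6% and 60.1%. Over all protein-coding genes the medians were 37.2% and 53.9%. Treatment, position in the gene and GC content moved together at these genes, and the part of GC content in the result was not tested.

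**Figure D3:**
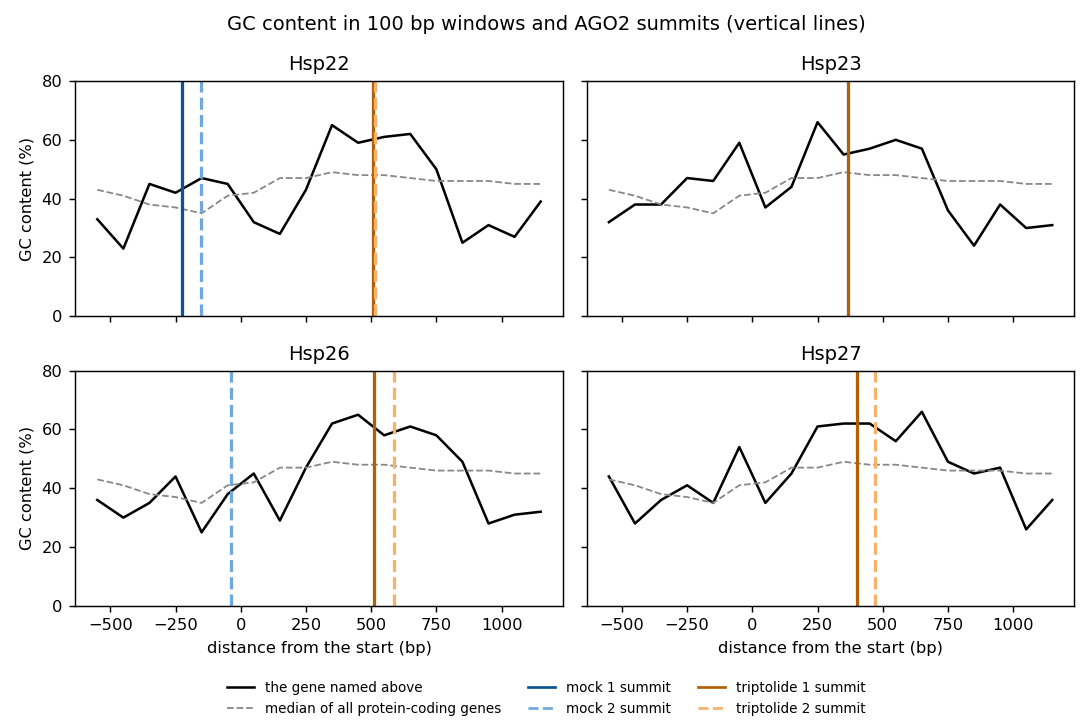
GC content in windows of 100 bp along the 4 small heat shock members (black) and its median over all protein-coding genes (grey dashes), against distance in bp from the start; vertical lines are AGO2 summits, blue in mock and orange after triptolide, solid for replicate 1 and dashed for replicate 2. Triptolide summits lie where GC content is above the median of all genes, and mock summits lie before the start.

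Hsp83 encodes the Drosophila Hsp90, which is abundant without heat shock and acts on kinases and receptors. The gene (FBgn0001233) spans chr3L:3192969-3197059 on the plus strand. It had 0 peaks in either mock list. The triptolide peaks at chr3L:3195884-3196554 and chr3L:3196219-3196633 overlapped each other, with summits 3304 and 3462 bp beyond the upstream start. Both summits fell near the 3′ end of the coding sequence, 1774 and 1932 bp into its 2151 bp. Folds were 2.56 and 3.47, the −log10 q-values were 2.5 and 4.95 and the percentiles were 11.3 and 74.4. Its upstream 250 bp were poor in GC, with 30.4%, against 55.4% in the coding sequence and 58.1% and 60.2% in the peaks. Of its 50 bp windows, 96.1% occurred once in the genome, and within the peaks all did. Hsp83 thus differed from the small heat shock genes in that its peaks lay far from the start.

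Hsp68 encodes an inducible chaperone related to Hsp70 but distinct in sequence, sharing 0% of its 50 bp windows with Hsp70Aa. The gene (FBgn0001230) spans chr3R:24055080-24057310 on the minus strand and every one of its windows occurred once in the genome. It had 1 peak, in triptolide replicate 1 at chr3R:24055348-24056029, with a summit 1531 bp beyond the start and 1325 bp into the coding sequence of 1905 bp. The fold was 2.77, the −log10 q-value 3.21 and the percentile 32.7. Its promoter, with 3 overlapping heat shock elements of 3 units from 182 to 160 bases before the start and 0 GAGA elements, had no peak in any list. Hsp68, Hsp23 and Hsf were the members whose body peak in triptolide replicate 1 was not found again in replicate 2.

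The Hsp70 genes encode the major inducible chaperone of Drosophila and were examined apart from the others, since the authors discarded reads with a mapping quality below 20. Such reads fit several places alike, and at a length of 50 bases they cannot tell identical stretches apart. Hsp70Aa (FBgn0013275, chr3R:11954163-11956544, minus strand) had 1.11% of its 50 bp windows found once in the genome, and shared 98.9% of them with Hsp70Ab. Hsp70Ba (FBgn0013277, chr3R:12465453-12467776, minus strand) had 12.6% found once, and shared 85.2%, 83.2% and 75.9% with Hsp70Bb, Hsp70Bbb and Hsp70Bc. The other copies had 0.817% (Hsp70Ab), 4.92% (Hsp70Bb), 2.52% (Hsp70Bbb) and 13.4% (Hsp70Bc) found once. The lack of a body peak at the Hsp70 members can therefore not be read as a lack of AGO2.

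Neither Hsp70 member had a peak that could be assigned to its transcribed part by its summit. Hsp70Aa was counted as having a peak in both triptolide lists, at chr3R:11953192-11953879 and chr3R:11953166-11953841, with folds of 4.74 and 5.93 and percentiles of 89.1 and 97.3. These peaks began 284 and 322 bp beyond the 3′ end of Hsp70Aa, and both summits fell in the coding sequence of the neighbour CG31211. They were therefore peaks of a neighbour within the window and not of Hsp70Aa. With the window reduced to 0 bp, members with a peak numbered 7 and 4 in the triptolide lists, as neither these nor the peaks upstream of Hsf counted.

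Hsp70Ba had a peak over its start in mock replicate 2 alone, at chr3R:12467675-12467996. The fold was 2.96, the −log10 q-value 9.66 and the percentile 38.5. Its summit lay 176 bp before the start, on the first CTCTC in the stretch of Hsp70Ba printed above. Of the windows in this peak, 44.3% occurred once in the genome. A run of 46 such windows began between 223 and 178 bases before the start, and all of them held the 5 bases from 178 to 174 before the start, which are this CTCTC. The summit of the peak thus coincided with bases that set Hsp70Ba apart from its copies.

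A like coincidence was seen at Hsp70Bb, a copy that is not among the members. Its peaks at chr3R:12505725-12506228 in mock replicate 2 and chr3R:12505910-12506247 in triptolide replicate 1 had folds of 7.44 and 7.14 and percentiles of 36.4 and 90.0. Both summits lay at the same base, 186 bp beyond the start. In these peaks 13.8% and 17.6% of windows occurred once, and all 50 windows of the run around the summit shared a single base, 1 bp from the summit. The place of a summit within an Hsp70 copy is therefore not comparable with that in a single-copy gene. Hsp70Ab and Hsp70Bc had 0 peaks in any list, and Hsp70Bbb only those of Hsp70Bb within its window.

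**Figure D4:**
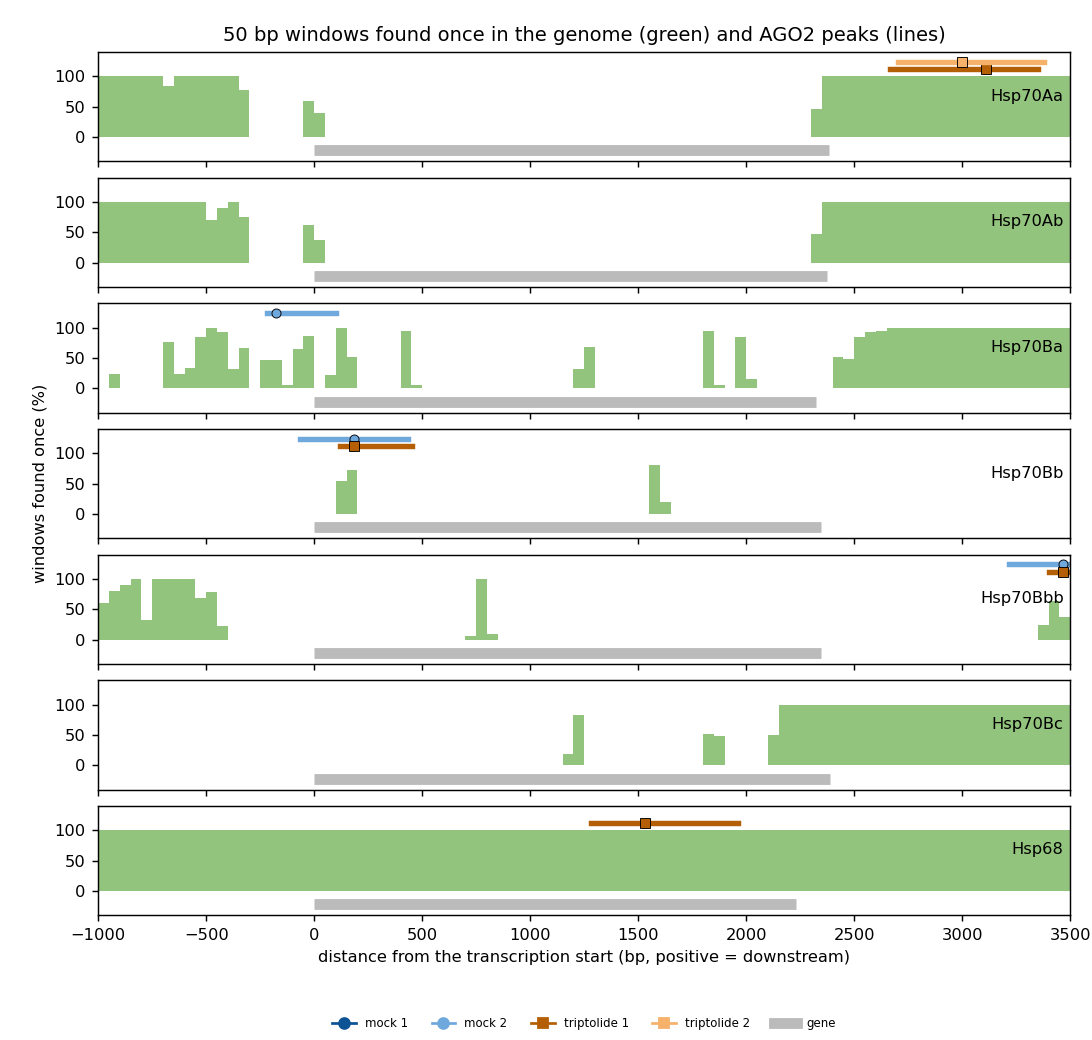
Share of 50 bp windows found once in the genome (green bars, in bins of 50 bp by the 5′ end of the window) along the 6 Hsp70 copies and Hsp68, against distance in bp from the start; grey bars are genes, and coloured lines with markers are AGO2 peaks and summits. The Hsp70 bodies hold few windows found once, from 0.817% of the gene in Hsp70Ab to 13.4% in Hsp70Bc, against every window of Hsp68. The summits at Hsp70Ba and Hsp70Bb lie just past the 5′ ends of a run of such windows, at or 1 bp from the bases that the whole run shares.

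Repeated sequence also touched a single-copy member. Of the windows of Hsp27, 54.8% occurred once, and 715 windows that began 868 to 1582 bp beyond the start had a second copy at chr3L:9386112-9386875, at the annotated genes CR43482, CR43483 and CG4080. The triptolide peaks of Hsp27 lay before this stretch, and all windows in them occurred once. At Hsp22, Hsp23, Hsp26, Hsp68 and Hsf every window of the gene occurred once.

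Hsf encodes heat shock factor, the activator that binds the heat shock elements, and is itself expressed without heat shock. It lies on another chromosome than the genes above, and had 0 peaks in either mock list. In triptolide replicate 1 a peak with 54.8% GC, a fold of 3.71, a −log10 q-value of 6.43 and a percentile of 86.5 had its summit in the coding sequence, 698 bp beyond the start. Triptolide replicate 2 had 0 peaks inside the gene. Both triptolide lists had a peak upstream of Hsf, with folds of 4.34 and 3.31 and percentiles of 91.8 and 57.8. These peaks lay 1223 and 1308 bp from the gene, and their summits fell in the coding sequence of the neighbour Pcl, which encodes a Polycomb group protein. Of the peaks counted for Hsf, only that in the body of the gene in triptolide replicate 1 could thus be assigned to it by the summit. Hsf had 52.3% GC in its coding sequence, the lowest coding value of the members.

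The other genes of the chaperone system were taken as a wider list of 33, which holds further small heat shock genes, Hsp70 copies and cognates, Hsp90 partners, Hsp40 and Hsp60 proteins and regulators. A peak was found for 7 and 13 of these in the mock lists and for 17 and 14 in the triptolide lists, a difference of 5.5 (exact permutation p = 0.333), or 21.2% and 39.4% against 51.5% and 42.4%. The direction did not hold for the stronger peaks: the difference was -3.5 with −log10 q-values of at least 5 (6 and 13 genes against 8 and 4) and -3.0 with equal numbers of top peaks (7 and 10 against 7 and 4). Without mock replicate 1 it was 2.5, and without mock replicate 2 it was 8.5. The mock shares exceeded the 6.53% and 11.3% of all genes, but genes of the small heat shock cluster were counted for peaks of the members, since CG4456, CG4461, Hsp67Ba and Hsp67Bc lie within 1500 bp of the Hsp22 or Hsp26 peaks. By summit, 2 and 4 of the 33 had a peak at the start in the mock lists and 1 and 0 in the triptolide lists, and 2 and 3 against 9 and 8 had a peak in the body. In all 4 lists these body counts include CG4456, which overlaps Hsp22, through the Hsp22 peaks, so they are not independent of those of members. After triptolide 27.3% and 24.2% of the wider list had a body summit, beside 20.2% and 20.8% of all genes and 77.8% and 44.4% of members. Neither the wider list nor all genes were matched to the members in gene length or type. With 9 members, 1 gene is worth 11.1 percentage points.

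**Figure D5:**
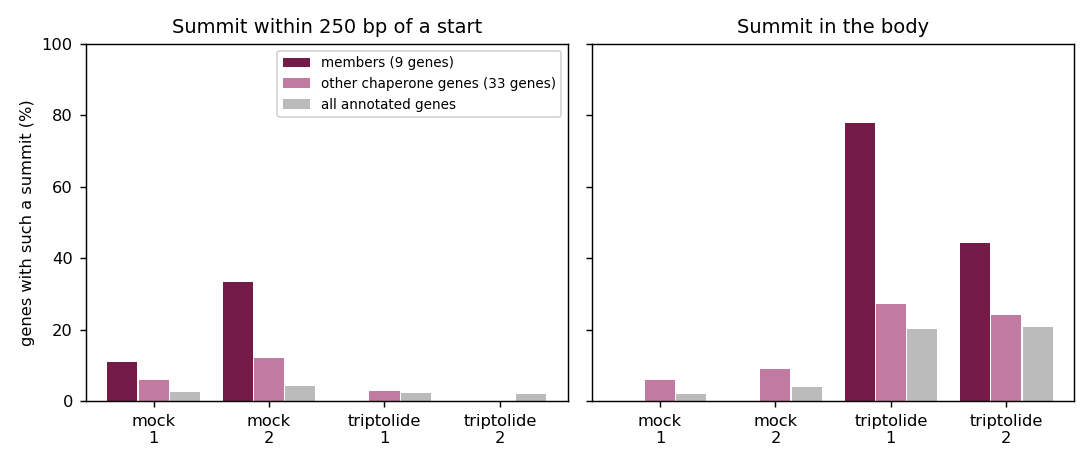
Share of genes (%) with a summit within 250 bp of a start (left) and in the gene body (right) in each of the 4 lists, for the 9 members, the 33 other chaperone genes and all 18277 annotated genes. The sets were not matched in gene length or type. With this zone of 250 bp, start summits at members were found in the mock lists only, at 11.1% and 33.3%, and body summits in the triptolide lists only, at 77.8% and 44.4%; with a zone of 500 bp the mean number with a start summit did not differ between treatments.

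A peak in both mock lists was found for 7 of the 33 genes and a peak in both triptolide lists for 12. Of the 33, stv was the gene with both positions. It encodes Starvin, a BAG domain partner of Hsp70. Its mock summits lay 111 and 161 bp before a start, with folds of 6.6 and 5.82, and its triptolide summits lay in the coding sequence 950 bp from the nearest start in replicate 1 and 825, 938 and 1829 bp in replicate 2, with folds from 2.82 to 3.71. Hsc70-3, which encodes the Hsp70 cognate of the endoplasmic reticulum, had start summits in both mock lists, 125 and 74 bp before a start with folds of 3.37 and 10.9, and 0 peaks after triptolide. Hsp110 had a mock peak in an intron in both replicates, with folds of 5.57 and 3.73, and its triptolide peaks lay in the neighbour Neurl4.

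Body peaks in both triptolide lists, with 0 peaks in mock, were found for Hsc70-4, Droj2 and Hsp60B. Hsc70-4 encodes the constitutive cytosolic Hsp70 cognate and has 6 annotated starts. Its summits lay 1050 and 1885 bp from the nearest of these in replicate 1 and 1417 bp in replicate 2, with folds of 2.51, 2.63 and 3.3. Droj2 encodes an Hsp40 cochaperone, and its overlapping peaks had summits 441 and 554 bp from the nearest of its 4 annotated starts and folds of 4.28 and 2.36. At Hsp60B, which encodes a mitochondrial-type chaperonin of the testis, the peaks lay at different places, 1894 and 373 bp from the start. Gp93 and Stip1, partners or relatives of Hsp90, had a body peak in triptolide replicate 2 alone and, in both triptolide lists, a peak of a neighbour. Hsp60A and mrj had triptolide peaks in both lists that lay in a neighbour, and Trap1 had mock peaks in both lists with summits in an intron of Vha16-1. Peaks in 0 lists were recorded for 9 of the 33, among them the Hsp70 copies Hsp70Ab and Hsp70Bc.

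The rank of the peaks within their lists bears on the count of members. The 11 triptolide peaks in members had folds from 1.9 to 3.77 and percentiles from 1.85 to 90.0, and the 4 mock peaks had folds from 2.96 to 8.69 and percentiles from 38.5 to 79.3. When the 1055 strongest peaks were taken from every list, 1 and 2 members had a peak in the mock lists. In the triptolide lists 4 and 1 did, so that the means differed by 1 (exact permutation p = 1.0). Among all genes the shares were then 6.53%, 6.98%, 9.59% and 9.28% in mock replicates 1 and 2 and triptolide replicates 1 and 2. In triptolide replicate 1 these were Hsp22, Hsp26, Hsp70Aa and Hsf, and in replicate 2 Hsp70Aa alone, through the peak in its neighbour. With −log10 q-values of at least 5, the numbers of members were 1 and 3 against 4 and 1. The larger number of members after triptolide therefore held for the full lists and not for lists of equal length. In both of these selections start summits at members were found in the mock lists alone and body summits in triptolide replicate 1 alone, at 3 genes.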

How the data were processed

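AGO2 ChIP-seq peak lists of mock-treated and triptolide-treated Kc167 cells, 2 replicates each, were used, and groups came from the labels. Per the labels and the study's methods the authors trimmed single-end reads of 50 bases with cutadapt (1.10), aligned them to dm6 with Bowtie2, discarded mapping qualities below 20, removed duplicates with Picard (2.11.0) and called peaks per replicate against its input with MACS2 (2.1.1.20160309). These versions are those of the submitters' processing notes, and the study's methods name other versions of cutadapt and Picard. The deposited score is 10 times the −log10 q-value cut to a whole number, with 0 exceptions. The fold is the authors' ratio, at the summit, of signal to local background. The −log10 p-value and −log10 q-value are the authors' own, and the lowest −log10 q-value was 1.32. Depth is unknown.

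The 18277 genes (without transposable elements, on placed chromosomes) and their starts came from Ensembl release 115 (BDGP6.54) and sequences from the RefSeq Release 6 genome. Peaks were assigned within 1500 bp with an overlap of 1 bp, and a peak could count for several genes. Counts per list were compared by two-sided exact permutation tests with Python 3.11.15 and numpy 2.4.6. Scripts were tested on simulated data. All members were described, and of the wider list the genes with a peak in both lists of either treatment were named. The other Hsp70 copies were described beside the members. Alternatives covered the window, the peak threshold, peak rank, overlap, the nearest gene, the summit distance, each replicate left out and a replicate block. The members and lists were chosen with earlier results of these data known, and the search for GAGAG and TATAAA as well as the shared word were added after the data were seen. Input libraries and pooled calls were not used here.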

Additional observations from a re-analysis of the deposited data

How the results depend on the processing

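Alternatives gave 69 values, of which 49 kept their direction and stayed near the main value, 18 moved and 2 reversed. A count stayed near when it was within a factor of 1.5 of the main value. GC content stayed near when it differed by less than the SD between replicates. Members with a peak differed by 5 between treatments, but by 0.5 with −log10 q-values of at least 5 and by 1.0 with an equal number of 1055 top peaks per list. Distinct peaks at members differed by 5.5, which became 1.0 and 1.5 under these settings and 3.5 both with a window of 0 bp and with each peak given to its nearest gene. Members with a body summit differed by 5.5, which became 1.5, 1.5, 2.5 (top 50% of each list) and 3.5 (start zone of 500 bp). Members with a start summit differed by -2, which became -0.5 with the top 50% of each list, -0.5 with a start zone of 150 bp and 0.0 with one of 500 bp. The 33 other chaperone genes differed by 5.5, which became 3.5 with a window of 0 bp and 3.5 with the nearest gene, and reversed to -3.5 with the stricter q-value and to -3.0 with equal numbers. The cause was not tested beyond the smaller number of peaks these settings keep.

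Leaving out 1 replicate at a time gave 4 to 6 members with a peak, 4 to 7 distinct peaks, -3 to -1 members with a start summit (-1 without mock replicate 2), 4 to 7 with a body summit, 2.5 (without mock replicate 1) to 8.5 (without mock replicate 2) other chaperone genes, and a GC difference of 14.2 to 20.7 percentage points. GC content around the summit differed by 16.3 percentage points. Replicate numbers were not shown to pair the lists, since the correlation of deviations over genes was -0.00698 for presence. With a replicate block the differences were 5, 5.5, -2, 5.5 and 5.5, with an exact sign-flip p of 0.5, the smallest that 2 pairs allow.

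Unknown depth, 2 lists a treatment and calls of presence limit every count. Few positions of the Hsp70 copies are open to reads of this length.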
